A study of Sus scrofa with 16 samples.

Results

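The cardiac transcription factors of the MEF2, NFAT, GATA, T-box, NKX and HAND families were followed in RNA of the left ventricle after myocardial infarction (MI) in pigs. The 10 genes MEF2A, MEF2C, MEF2D, NFATC1, GATA4, GATA6, TBX5, TBX20, NKX2-5 and HAND2 were taken by name, using each probe set whose single gene symbol was one of them. This gave 7 probe sets for 5 genes (MEF2A, MEF2D, NFATC1, GATA4 and GATA6) among the 23999 probe sets tested, and MEF2C, TBX5, TBX20, NKX2-5 and HAND2 were not analysed here. The animals were Yorkshire x Landrace swine of 2 to 3 months, 8 with an infarction (MI 1 to MI 8) and 8 with a sham operation (Sham 1 to Sham 8), sampled 3 weeks after surgery. Each group held 4 females and 4 neutered males by the labels, and each animal gave 1 Affymetrix porcine array of total RNA from crushed frozen left ventricle. The labels do not say how the infarction was made, which region of the ventricle was taken or how far it lay from the infarct.

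As background, cardiac muscle genes are switched on by a small group of DNA-binding proteins that work together on the same enhancers. GATA4 and GATA6 are zinc finger proteins, MEF2 proteins bind A/T-rich sites, TBX5 and TBX20 are T-box proteins, NKX2-5 is a homeodomain protein and HAND2 is a basic helix-loop-helix protein. MEF2 and NFAT proteins also carry calcium signals to the genome: the phosphatase calcineurin removes phosphates from NFAT proteins, which then enter the nucleus and can bind DNA with GATA4 or MEF2, and calcium/calmodulin-dependent kinases release MEF2 from class IIa histone deacetylases. In hypertrophy and heart failure much of this control acts on the proteins, which an array does not measure.

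The values are log2 signals that reached 14.92, and a difference of 1 is a 2-fold change in signal. The highest value of 23 control probe sets without target RNA, 4.99, was taken as the ceiling of the background, and a probe set with a group mean over it was called above background (16731 of 23999). All 11 of the measured cardiomyocyte markers were above background, and their log2 summed signal was 17.43 to 17.54 in Sham and 17.41 to 17.53 in MI, so heart muscle RNA was present in each sample. Pairs of arrays correlated at 0.972 to 0.992 over all probe sets. The spike-in controls divided the arrays into a larger set A (11 arrays, 6 MI and 5 Sham) and a smaller set B (5 arrays: MI 7, MI 8, Sham 6, Sham 7 and Sham 8). The added poly-A RNAs minus the hybridisation controls gave log2 differences of -2.51 to -1.41 in set A and -4.86 to -3.81 in set B. The log2 difference between the 3' and 5' actin probe sets, a measure of RNA length, was 2.21 to 3.04 in set A and 1.21 to 1.54 in set B, and spanned 1.51 to 3.04 in MI and 1.21 to 2.91 in Sham. MI 7, labelled female, had the chromosome Y gene EIF1AY at 9.51, within the 9.40 to 9.96 of the 8 males and above the 3.00 to 3.51 of the 7 other females. Values within each set are given beside the members' MI minus Sham results. Values without MI 7 are given beside those of NFATC1 and MEF2A probe set 1 and beside the results by sex.

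MI was compared with Sham to ask whether the transcripts of these factors differed at 3 weeks. NFATC1 and 1 of the 2 MEF2A probe sets were lower in MI, and MEF2D, GATA4, GATA6 and the other MEF2A probe set did not pass the test. Hence 2 of 7 probe sets passed at an adjusted p under 0.05 (limma, n = 8 per group), both lower, where 10.5% of all probe sets passed, 5.14% as lower and 5.39% as higher. These were also the 2 with an unadjusted p under 0.05, against 23.6% of all probe sets. By gene, using the probe set with the highest mean signal, 2 of 5 passed, both lower, against 7.63% of the 6765 genes represented and 3.5% as lower. No member probe set had all 8 MI animals below all 8 Sham animals, as 1.39% of all probe sets did. The median difference of the 5 genes was -0.23 on the log2 scale, against 0.00 over all genes. Both changes were small, though near the median size of 0.35 among all probe sets that passed. In bulk tissue, fewer cells of a type and less RNA per cell cannot be told apart.

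**Figure D1:**
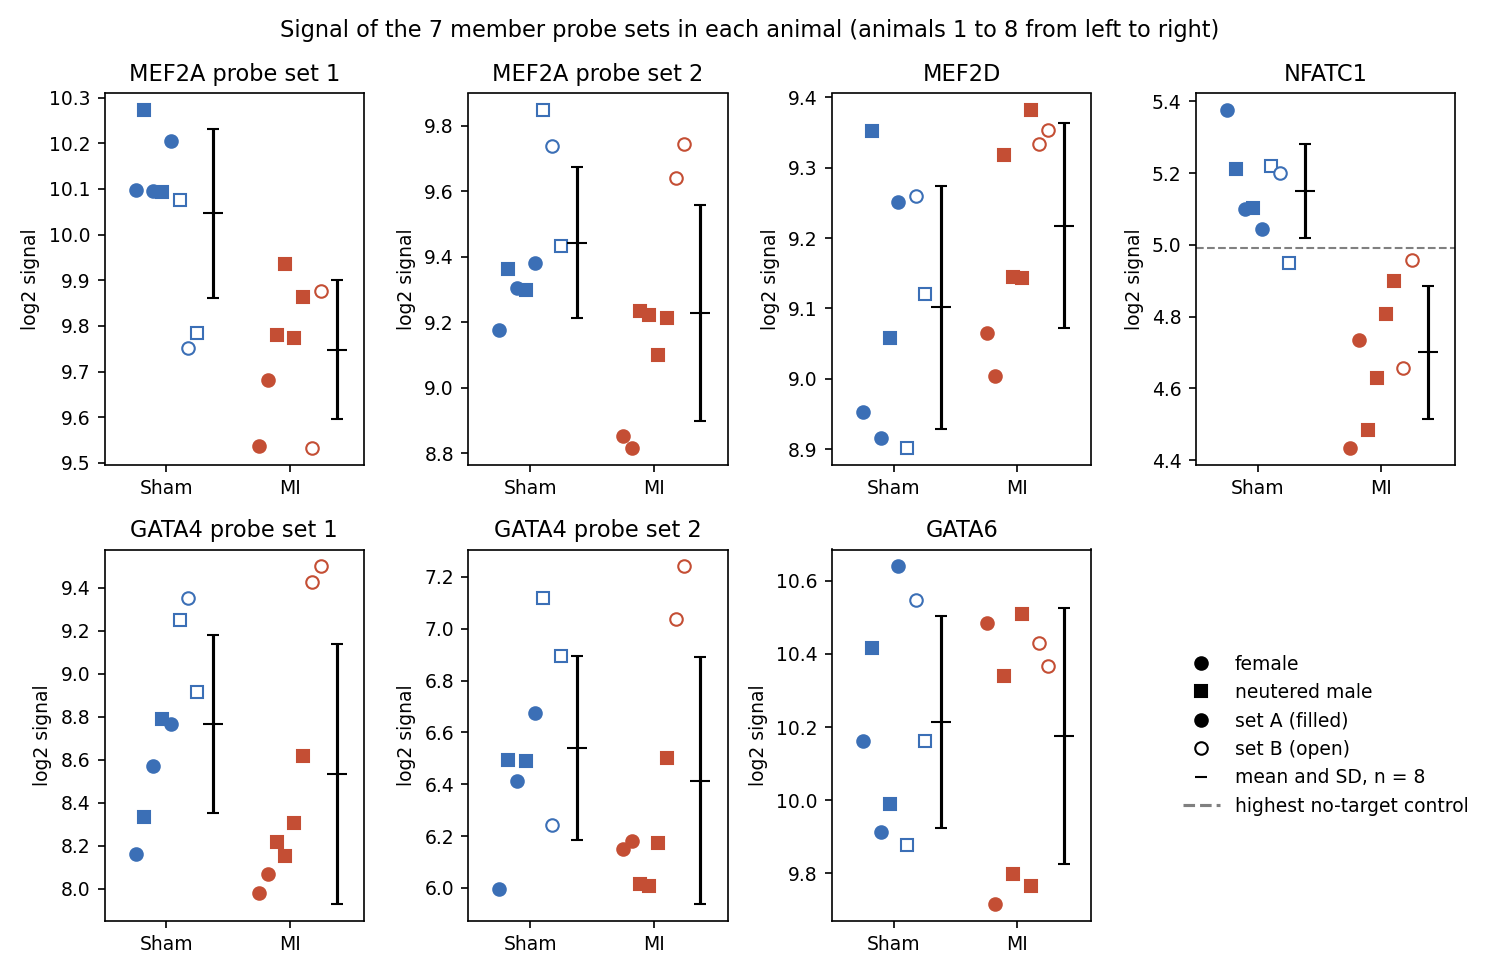
Log2 signal (vertical axis, a separate scale per panel) of each of the 7 probe sets in each Sham (blue) and MI (red) animal, females as circles, neutered males as squares, arrays of set A filled and of set B open, with the group mean and SD (n = 8). For NFATC1 all 8 MI animals lie under the background ceiling of 4.99 (dashed) and 7 of 8 Sham animals above it, whereas for GATA4 probe set 1 and MEF2A probe set 2 the open symbols are above the filled ones in both groups.

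NFATC1 (Entrez gene 397318, chromosome 1) encodes an NFAT protein that calcineurin activates, best known in the heart for its part in the endocardium during valve formation. Its signal in the 8 Sham animals was 4.95 at the lowest, 5.15 at the median and 5.37 at the highest. In the 8 MI animals it was 4.43, 4.70 and 4.96. All but 1 of the MI animals lay below each Sham animal, and the overlap came from MI 8 (4.96) and Sham 8 (4.95), both of set B. The means were 5.15 ± 0.13 in Sham and 4.70 ± 0.19 in MI (SD, n = 8), a difference of -0.45 (SE 0.09, 95% interval -0.63 to -0.27, adjusted p 0.00356 by limma). Because no MI animal reached the background ceiling, the MI level is known only as under it. With MI set at the ceiling, the Sham mean was 1.12-fold above MI, a log2 difference of 0.16. That value has no interval, and Sham 8 was itself under the ceiling, so it is not a sure minimum.

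The NFATC1 difference was -0.44 with the set of the array as a block (adjusted p 0.00409, 12.9% of all probe sets passing, 6.35% as lower) and -0.43 with MI 7 also left out (adjusted p 0.0113). Within set A the Sham animals spanned 5.04 to 5.37 and the MI animals 4.43 to 4.90. These did not overlap, which held for MI below Sham in 4.3% of all probe sets in that set, and the difference was -0.52 (SE 0.11, adjusted p 0.0148, 9.68% of all probe sets passing, 5.1% as lower). Within set B, with 2 MI and 3 Sham animals, it was -0.32 (SE 0.16) and did not pass (adjusted p 0.534), as for all but 1 of the 23999 probe sets there (0.00417%). All fits within set B had group alone, without sex. Both MI animals there were labelled female and 2 of the 3 Sham animals male, so group and labelled sex are mixed in each set B value. The NFATC1 call held without any 1 of the 16 animals (adjusted p 0.00193 to 0.00935). Probe sets this dim passed often: of the 1000 nearest in mean signal (4.78 to 5.07), a comparison chosen after the values were seen, 24.2% passed, 13.4% as lower. What moves so many dim probe sets was not tested. Adding 32 to the linear signals before the logarithm, which shrinks differences near background, gave -0.22.

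MEF2A (Entrez gene 100037273, chromosome 1) is a MADS-box factor of heart and skeletal muscle, and 2 probe sets reported it. Probe set 1, with the higher mean, gave 9.75 at the lowest, 10.09 at the median and 10.27 at the highest in Sham. In MI it gave 9.53, 9.78 and 9.94. In 6 of 8 Sham animals it was above each MI animal, and the low Sham animals were Sham 7 and Sham 8 of set B, which lay among the MI values. The means were 10.05 ± 0.18 in Sham and 9.75 ± 0.15 in MI (SD, n = 8), a difference of -0.30 (SE 0.08, 95% interval -0.48 to -0.12), or 1.23-fold lower (adjusted p 0.0341 by limma), with 8 of 8 MI animals under the Sham mean.

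Within set A, MEF2A probe set 1 did not overlap between groups, with Sham at 10.09 to 10.27 and MI at 9.54 to 9.94. All MI lay below all Sham in 4.3% of all probe sets in that set. The difference there was -0.43 (SE 0.07, adjusted p 0.0062, 9.68% of all probe sets passing, 5.1% as lower). It was -0.32 with the set as a block (adjusted p 0.0156), -0.31 with MI 7 also left out (adjusted p 0.0341) and -0.17 within set B (SE 0.17, adjusted p 0.77). Of the 1000 probe sets nearest in mean signal (9.47 to 10.33), 1.3% passed and 0.7% passed as lower. The call was lost, with differences of -0.35 to -0.26 over all omissions and adjusted p up to 0.0699, without any 1 of MI 1, MI 2, MI 3, MI 5, MI 6, MI 7 and Sham 1 to Sham 6, and held without MI 4, MI 8, Sham 7 or Sham 8.

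MEF2A probe set 2 gave 9.18, 9.37 and 9.85 in Sham and 8.82, 9.22 and 9.74 in MI, as the lowest, median and highest. The groups overlapped widely, since the set B animals of both groups were the highest. The difference was -0.22 (SE 0.14, 95% interval -0.52 to 0.08, adjusted p 0.396). It was -0.30 within set A (SE 0.07, adjusted p 0.0205), where it passed, -0.15 with the set as a block (adjusted p 0.273) and 0.02 within set B (SE 0.16). The mean of both probe sets differed by -0.26 (adjusted p 0.0677). After removal of group, sex and set, the residuals of the 2 probe sets correlated over the 16 animals (Pearson r 0.78, Spearman rho 0.79), whereas the unadjusted signals did so weakly (r 0.21, rho 0.19). These correlations share the arrays and their depth of labelling.

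MEF2D (Entrez gene 100156714, chromosome 4), a MADS-box relative of MEF2A that drives fetal gene expression in the stressed mouse heart, gave 8.90, 9.09 and 9.35 in Sham as the lowest, median and highest. In MI it gave 9.003, 9.23 and 9.38. The groups overlapped, and the Sham mean was exceeded in 6 of 8 MI animals. The means were 9.10 ± 0.17 and 9.22 ± 0.15 (SD, n = 8), a difference of 0.12 (SE 0.09) that did not pass (adjusted p 0.467), and its 95% interval ran from -0.07 to 0.30. It was 0.02 within set A (adjusted p 0.929), 0.25 within set B (adjusted p 0.598) and 0.13 with the set as a block (adjusted p 0.374). The difference between the responses of MEF2A and MEF2D was not tested.

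GATA4 (Entrez gene 397555, chromosome 14), a regulator of cardiac muscle genes such as those of the natriuretic peptides, was also reported by 2 probe sets. Probe set 1 gave 8.16, 8.78 and 9.35 in Sham and 7.98, 8.26 and 9.50 in MI. Probe set 2 gave 5.996, 6.49 and 7.12 in Sham and 6.01, 6.18 and 7.24 in MI. For both, the 2 MI animals of set B, MI 7 and MI 8, lay above the other 6 MI animals by more than those differed among themselves. The differences were -0.23 for probe set 1 (SE 0.24, 95% interval -0.74 to 0.27, adjusted p 0.623) and -0.13 for probe set 2 (SE 0.17, 95% interval -0.49 to 0.23, adjusted p 0.722). With the set as a block the interval of probe set 1 narrowed to -0.40 to 0.17 around -0.11. In set A the differences were -0.36 (adjusted p 0.13) and -0.26 (adjusted p 0.253), and in set B they had the other sign, 0.29 (adjusted p 0.582) and 0.39 (adjusted p 0.638).

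GATA6 (Entrez gene 397600, chromosome 6), which overlaps with GATA4 in function in heart muscle, gave 9.88, 10.16 and 10.64 in Sham and 9.72, 10.35 and 10.51 in MI. Values in both groups were spread over the same range. The means were 10.21 ± 0.29 and 10.18 ± 0.35 (SD, n = 8), and the difference of -0.04 (SE 0.15, adjusted p 0.922) had a 95% interval of -0.36 to 0.29. It was -0.12 within set A (adjusted p 0.765), 0.20 within set B (adjusted p 0.765) and -0.02 with the set as a block (adjusted p 0.954).

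**Figure D2:**
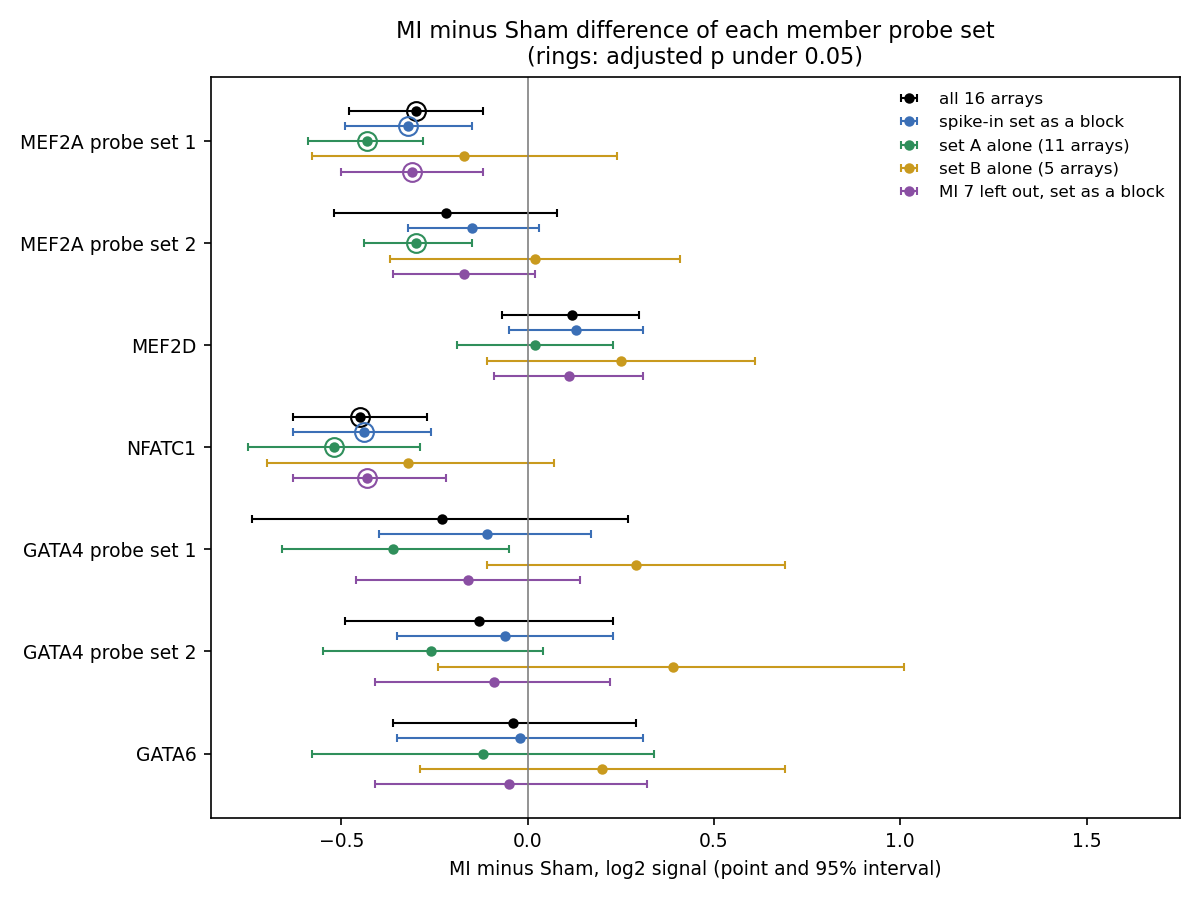
MI minus Sham difference in log2 signal (horizontal axis) of the 7 probe sets, as points with 95% intervals, over all 16 arrays, with the array set as a block, in set A alone (11 arrays), in set B alone (5 arrays) and with the block and MI 7 left out. Rings mark an adjusted p under 0.05: NFATC1 and MEF2A probe set 1 are ringed in each fit but that of set B, and MEF2A probe set 2 in set A alone.

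The spike-in set moved 3 of the 7 probe sets at an adjusted p under 0.05 with group and sex in the fit, where 17.6% of all probe sets passed that comparison. GATA4 probe set 1 was 8.36 ± 0.28 in set A (SD, n = 11) and 9.29 ± 0.23 in set B (SD, n = 5), a fitted difference of 0.95 (SE 0.16, adjusted p 0.000911). GATA4 probe set 2 differed by 0.51 (SE 0.16, adjusted p 0.0415) and MEF2A probe set 2 by 0.55 (SE 0.10, adjusted p 0.00139), all higher in set B. For these 3 probe sets the arrays' set was thus a larger difference than that between MI and Sham. MEF2A probe set 1, MEF2D, NFATC1 and GATA6 did not pass, with set B minus set A at -0.16, 0.10, 0.06 and 0.13. The actin 3' to 5' difference moved with the set, as given above, and its part in these levels was not tested.

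**Figure D3:**
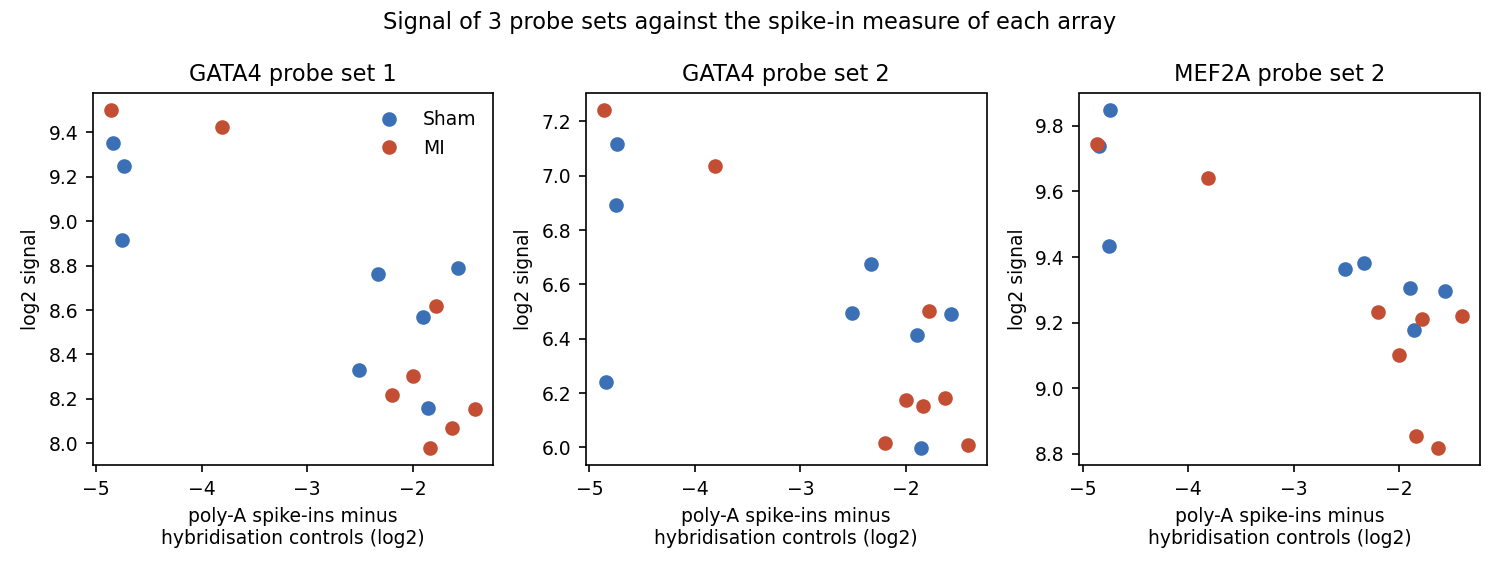
Log2 signal of GATA4 probe sets 1 and 2 and MEF2A probe set 2 (vertical axes) against the poly-A spike-ins minus the hybridisation controls of the same array (horizontal axes, log2), Sham in blue and MI in red. The 5 arrays of set B lie at -4.86 to -3.81 on the horizontal axis, and for GATA4 probe set 1 each of them is above the 11 arrays of set A.

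Sex was compared because each group held 4 animals of each. Female minus male, over both groups, 0 of the 7 probe sets passed (limma, 0 at an unadjusted p under 0.05), with differences of -0.10 to 0.17, and again 0 passed without MI 7, from -0.08 to 0.14. Over the whole array 14 of 23999 (0.0583%) passed, and 3.11% did so at an unadjusted p under 0.05. NFATC1 was lower in MI by -0.48 in females (SE 0.12, adjusted p 0.0451, 2.85% of all probe sets passing) and by -0.42 in males (SE 0.12, adjusted p 0.0754, 3.4% passing). The call in females was lost without MI 7, whose sex label its EIF1AY level goes against (-0.47, SE 0.14, adjusted p 0.102). The differences in the sexes were not told apart, since the interaction was -0.07 with a 95% interval of -0.44 to 0.30, and -0.05 without MI 7 (-0.45 to 0.34). MEF2A probe set 1 gave -0.38 in females (adjusted p 0.106), or -0.34 without MI 7 (adjusted p 0.233), and -0.22 in males (adjusted p 0.337). The interaction passed for 0 of the 7 probe sets and for 0 of all 23999 (limma, 1 of 7 and 5.68% of all at an unadjusted p under 0.05).

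The lowest interaction p among the members was that of GATA4 probe set 2. It differed by 0.32 in females and by -0.57 in males, an interaction of 0.90 (SE 0.34, unadjusted p 0.0185, adjusted p 0.794). Without MI 7 it was 0.77 (SE 0.34, adjusted p 0.979). Both MI animals of set B were labelled female, and with the set as a block the interaction was 0.51 (SE 0.29, adjusted p 1). GATA4 probe set 1 gave 0.53 (adjusted p 0.825), 0.30 without MI 7 and -0.18 with the block.

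The members were also set beside each other across the 16 animals, as a description. NFATC1 and MEF2A probe set 1 correlated at r 0.73 (rho 0.68) in signal, which includes the lower MI level that both shared. In the residuals left by group, sex and set they correlated at r 0.57 (rho 0.51). The same residuals gave the genes most like each member, among about 8278 probe sets above background with a single symbol. They were SNX6, SET and SF3B4 for NFATC1 (r 0.89, 0.85 and 0.81), and FBXW7, RGP1 and EVL for MEF2A probe set 1 (r 0.93, 0.92 and 0.92). NFATC1 was above the background ceiling in only 7 of the 16 animals, so its pattern may be largely noise. Each r is among the highest of about 8278, and such values can arise without a link between genes. MAPKAPK5 led for MEF2A probe set 2 (r 0.94), and itself was lower in MI by -0.46 (adjusted p 0.0217). CDC42BPB led for MEF2D (r 0.89), IDH2 for GATA4 probe set 1 (r 0.96), GYS1 for GATA4 probe set 2 (r 0.91) and SON for GATA6 (r 0.94). The 2 GATA4 probe sets thus had different nearest genes, although they correlated with each other at r 0.72 in the residuals and at 0.82 in signal.

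Upstream of NFATC1, no gene of the calcineurin pathway passed the test. Of 33 listed genes 15 were measured, 0 passed (limma, 3 at an unadjusted p under 0.05, against 18.1% of all genes) and their median difference was 0.01. The catalytic subunits of calcineurin gave -0.03 for PPP3CA (SE 0.11, adjusted p 0.904), -0.05 for PPP3CB (SE 0.05, adjusted p 0.622) and -0.02 for PPP3CC (SE 0.09, adjusted p 0.946). The lowest p was that of RCAN1, an inhibitor of calcineurin whose gene is itself a target of NFAT, followed by that of FKBP1A, the protein through which tacrolimus binds calcineurin (0.22, SE 0.09, adjusted p 0.126).

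RCAN1 gave 9.54, 10.13 and 10.26 in Sham as the lowest, median and highest, and 9.86, 10.45 and 11.42 in MI. The animals MI 3 and MI 5 were the highest of all, and MI 6, MI 7 and MI 8 lay within the Sham range. The difference was 0.55 (SE 0.17, 95% interval 0.18 to 0.92, adjusted p 0.0538), just outside the threshold, and a second RCAN1 probe set gave 0.56 (adjusted p 0.313). It passed when MI 6 (adjusted p 0.00887), MI 7 (0.0385) or Sham 2 (0.0386) was left out, and over all 16 animals with array weights (0.64, adjusted p 0.0236) or with an intensity trend and robust estimation (0.55, adjusted p 0.0461). In set A the difference was 0.54 (adjusted p 0.156) and in set B 0.23 (adjusted p 0.727).

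Of the kinases, class IIa histone deacetylases and coactivators that act on MEF2 proteins, 13 of 30 listed genes were measured. Here 2 rose, 0 fell and the median difference was 0.04, where 4.12% of all genes rose. Both were calcium/calmodulin-dependent kinases of the CaMKI family. CAMK1D gave 4.77, 5.61 and 6.36 in Sham and 6.15, 6.40 and 6.59 in MI, as the lowest, median and highest. In 5 of 8 MI animals CAMK1D was above each Sham animal, and Sham 7 and Sham 8 of set B were the highest Sham animals. The difference was 0.76 (SE 0.19, 95% interval 0.36 to 1.16, adjusted p 0.017), and the call held without any 1 of the 16 animals. It was 1.07 within set A (SE 0.17, adjusted p 0.00532), 0.38 within set B (SE 0.29, adjusted p 0.685), 0.80 with the set as a block (adjusted p 0.00722) and 0.49 with 32 added before the logarithm (adjusted p 0.0213). CAMK1 gave 7.33, 7.65 and 7.82 in Sham and 7.68, 7.85 and 8.24 in MI, a difference of 0.31 (SE 0.09, adjusted p 0.0497).

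The CAMK1 call lay at the threshold: it held without MI 1, MI 5 or Sham 7 and was lost without any 1 of the other 13 animals (adjusted p up to 0.0978), as in set A alone (adjusted p 0.125). The listed genes that did not pass included HDAC5, a class IIa deacetylase that represses MEF2 (-0.00, SE 0.19, adjusted p 0.999), and MAPK14, the p38 kinase that phosphorylates MEF2 (0.06, SE 0.08, adjusted p 0.746). CAMK2D, the main CaMKII gene of the heart, gave -0.13 (SE 0.09, adjusted p 0.385) and passed in set A alone at -0.29 (adjusted p 0.0402).

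**Figure D4:**
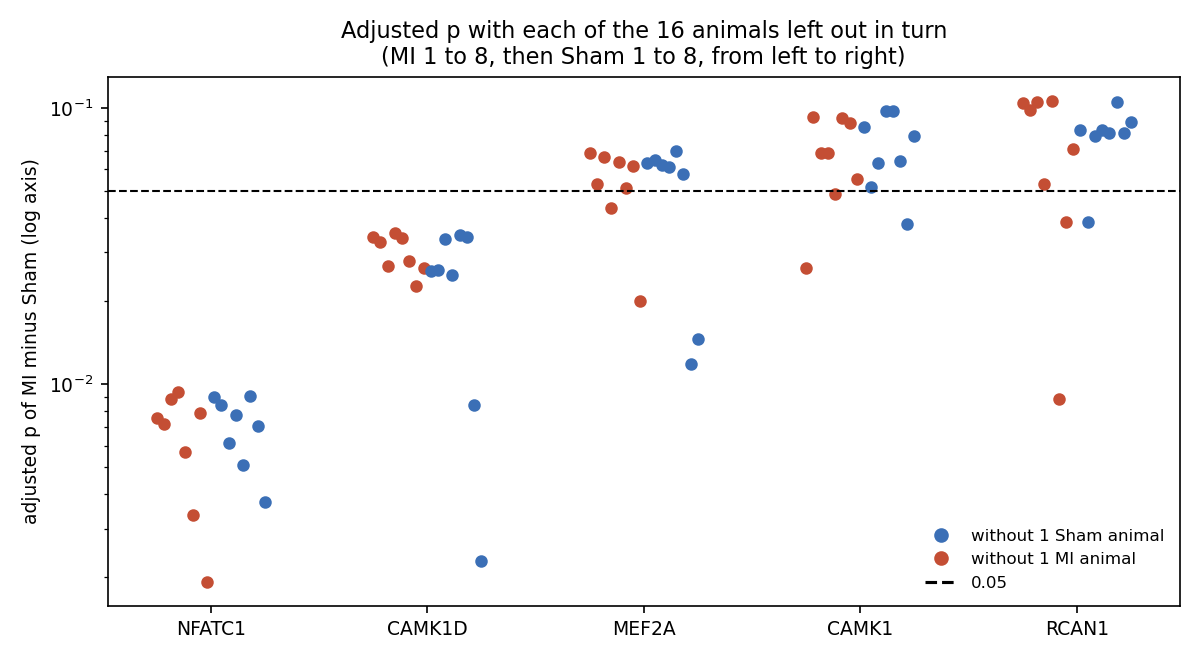
Adjusted p of the MI minus Sham difference (log axis) when each of the 16 animals is left out in turn, red without an MI animal and blue without a Sham animal, for NFATC1, CAMK1D, MEF2A probe set 1, CAMK1 and RCAN1. NFATC1 and CAMK1D stay under 0.05 (dashed) in each of the 16 omissions, MEF2A in 4, CAMK1 in 3 and RCAN1 in 3.

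Other cardiac transcription factors did not pass. Of 30 listed developmental factors 11 were measured and 0 passed (limma, 0 at an unadjusted p under 0.05), with a median of 0.04. The lowest p values were those of HAND1, a relative of HAND2 (0.15, SE 0.11, adjusted p 0.436), and SMYD1, a muscle histone methyltransferase that acts through HAND2 (0.17, SE 0.13, adjusted p 0.46). Of 32 listed regulators of muscle and metabolic genes 16 were measured and 0 passed (limma, 0 at an unadjusted p under 0.05), with a median of -0.04. KLF15, a repressor of hypertrophic growth that inhibits GATA4 and MEF2, gave -0.43 (SE 0.25, adjusted p 0.314).

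PPARGC1A, a coactivator of MEF2 and of mitochondrial genes, gave 9.87, 10.31 and 10.71 in Sham and 9.58, 9.94 and 10.88 in MI. In MI, 4 of 8 animals lay below each Sham animal and 1 above each, and the difference was -0.29 (SE 0.18, adjusted p 0.36). In set A it was -0.69 and passed (adjusted p 0.00795), and in set B it was 0.52 (adjusted p 0.436).

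Downstream, the heart muscle genes known as targets of these factors did not pass. Of 40 listed targets 30 were measured and 0 passed (limma, 1 at an unadjusted p under 0.05), 14 with a difference above 0 and 16 below, and the median was -0.01. The 2 with the lowest p were RCAN1, given above, and NPPB, which encodes the natriuretic peptide BNP of the stretched ventricle. NPPB had a median of 7.79 in Sham and 8.56 in MI, and ran from 6.11 to 9.38 in Sham and up to 10.44 in MI. The groups overlapped and the difference of 0.82 (SE 0.42, 95% interval -0.08 to 1.72) did not pass (adjusted p 0.259). In set A alone 1 target passed as lower and 0 as higher. It was KCNH2, at -0.26 (adjusted p 0.0407), against -0.13 over all 16 arrays (SE 0.10, adjusted p 0.504). Contractile genes such as MYH7 (-0.01, SE 0.05, adjusted p 0.937), TNNT2 (-0.07, SE 0.09, adjusted p 0.709) and the calcium pump gene ATP2A2 (-0.01, SE 0.07, adjusted p 0.936) were chosen for naming after their values were seen. Their Sham means, 14.53, 13.91 and 13.45, were near the highest signal of 14.92, where an array responds little, so small differences there do not show that these transcripts were stable.

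**Figure D5:**
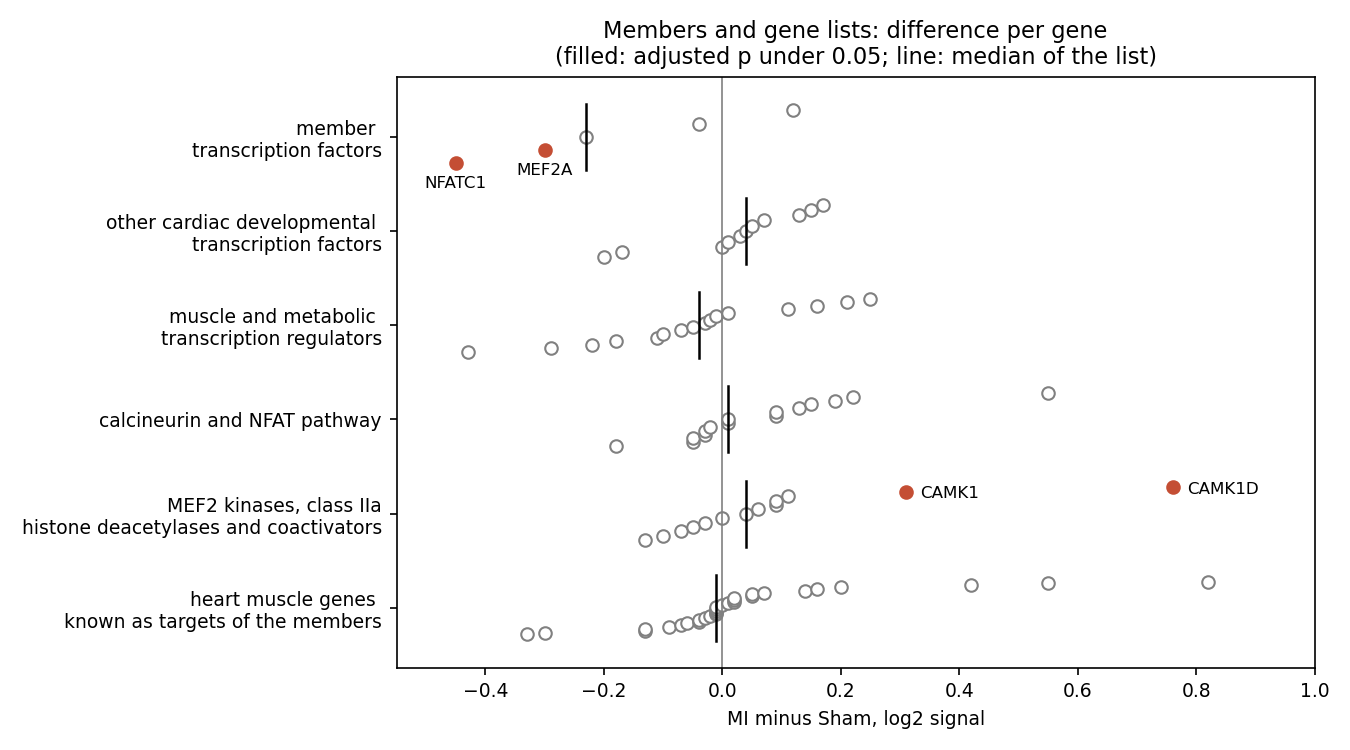
MI minus Sham difference in log2 signal (horizontal axis) of each measured gene of the member list and of 5 related lists, 1 circle per gene, filled at an adjusted p under 0.05, with the median of each list as a vertical bar. NFATC1 and MEF2A are filled on the lower side, CAMK1 and CAMK1D on the higher side, and the medians of the 5 related lists lie between -0.04 and 0.04.

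Markers of other cell types are given beside the members. Cardiomyocyte markers (11 of 13 measured), endothelial and endocardial markers (12 of 14), fibroblast markers (8 of 11), smooth muscle and pericyte markers (6 of 8) and atrial markers (4 of 5) each had 0 genes that passed (limma). At an unadjusted p under 0.05 they had 0, 1, 0, 0 and 0. NFATC1 is known from the endocardium, and the log2 summed signal of the endothelial and endocardial list was 12.09 to 13.22 in Sham and 12.40 to 12.90 in MI, with SELE alone not above background. Of the 12 measured, 8 had a difference below 0 and 4 above, with a median of -0.02. The lowest p values were those of KDR, a receptor of vascular endothelial growth factor (0.39, SE 0.15, adjusted p 0.13), and SELE, an adhesion molecule of activated endothelium (-0.71, SE 0.36, adjusted p 0.254), followed by that of TIE1, an endothelial receptor kinase (-0.35, SE 0.20, adjusted p 0.299). A second, dimmer KDR probe set, with a mean of 3.99 under the background ceiling, passed at 0.31 (adjusted p 0.0169). In set A alone 1 gene of the list passed as higher, PECAM1 (0.55, adjusted p 0.0213), and 0 as lower.

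Some markers of immune and fat cells rose. Of 10 measured T and NK cell markers of 12 listed, CD3D, CD8B, CD247 and IL7R rose and CD4 fell, where 4.12% of all genes rose and 3.5% fell, and IL7R and CD4 were not above background. CD8B lay near the background ceiling, at 4.77 to 5.43 in Sham and 5.22 to 5.58 in MI. Dim probe sets passed more often than others, as given for NFATC1. As single animals were left out, the call was lost in 9 of 16 omissions for IL7R (adjusted p up to 0.0689), 13 of 16 for CD4 (up to 0.094), 3 of 16 for CD247 (up to 0.0513) and 0 of 16 for CD3D and CD8B. The dimmer probe sets of CD247 gave 0.05, 0.08 and 0.29 and did not pass (adjusted p 0.751, 0.754 and 0.0544). Nor did that of CD4 (-0.02, adjusted p 0.904). CD3E and CD8A, the partners of CD3D and CD8B in their complexes, gave -0.26 (SE 0.19, adjusted p 0.443) and -0.10 (SE 0.21, adjusted p 0.831), and CD2 gave -0.08 (SE 0.16, adjusted p 0.817). CD3D, of the T cell receptor complex, rose by 0.43 (SE 0.10, adjusted p 0.0116), and the summed signal of the list was 8.88 to 9.58 in Sham and 8.73 to 9.53 in MI. Of 7 measured macrophage markers of 10 listed, CD14 rose by 0.76 (SE 0.14, adjusted p 0.00314), with a summed signal of 11.28 to 11.61 in Sham and 11.05 to 11.94 in MI. A second, dimmer CD14 probe set gave 0.28 and did not pass (adjusted p 0.056). Of 6 measured adipocyte markers of 8 listed, PPARG rose by 0.71 (SE 0.15, adjusted p 0.0076), ADIPOQ also rose but was not above background, and RETN fell, with only its Sham mean (5.01, against 4.74 in MI) above the ceiling. The ADIPOQ call was lost in 10 of 16 omissions of 1 animal (adjusted p up to 0.0695) and that of RETN in 13 of 16 (up to 0.0852), whereas CD14 and PPARG passed in each. The summed signal of that list was 12.36 to 13.17 in Sham and 12.77 to 13.07 in MI.

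Of 2 measured nerve markers of 7 listed, GFAP rose by 0.27 (SE 0.08, adjusted p 0.0468), a call lost in 12 of 16 omissions (adjusted p up to 0.0919), and S100B gave -0.18 (SE 0.16, adjusted p 0.551). The dimmer GFAP probe sets gave 0.41 (adjusted p 0.00053), 0.35 (adjusted p 0.00819) and -0.04 (adjusted p 0.901). The single measured B cell (CD79B) and epicardial (WT1) markers did not pass. The part of these cells in the lower NFATC1 and MEF2A signals was not tested.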

How the data were processed

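Left ventricular RNA of 16 pigs was measured on Affymetrix porcine arrays. The authors deposited log2 signals, so judged from their range and equal medians. Their software, background correction and normalization were not given in the sources used here. No further scaling was applied to them. The tests did not include the 124 control probe sets. Of the others, 10069 had 1 gene symbol, 198 several and 13732 none. Chromosomes came from RefSeq's annotation of Sscrofa11.1 by Entrez identifier, and no coordinates are given because the files name no build. Where a gene had several probe sets, the one with the highest mean stood for it.

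Tests used limma 3.58.1 in R 4.3.3, with a mean for each of 4 combinations of group and sex (12 residual and 3.28 prior degrees of freedom), two-sided, with Benjamini-Hochberg adjustment over 23999 probe sets and a threshold of 0.05. The code was tested on simulated data. MI minus Sham averages the female and the male difference, except within set B, where the fit had group alone. Spike-in sets were found by the largest gap in the poly-A minus hybridisation control signal. There was 1 array per animal, and precision is limited by how many animals there were and by how far a signal stood over background.

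The members and gene lists were chosen with earlier results of these data known. Genes named were every member, the passing genes of each list (or the 2 with the lowest p) and the 3 genes with the most similar residuals. Further genes were named after their values were seen. Alternatives changed the model, the scaling, the filters, the thresholds and the animals included. Samples sharing a number in the titles were checked for pairing: the residual correlations over the 8 numbers ran from -0.07 to 0.46, so the numbers were not taken to pair animals.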

Additional observations from a re-analysis of the deposited data

How the results depend on the processing

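The count of member probe sets that passed in MI minus Sham was 2. It was 1 with the title's number as a replicate block (NFATC1 adjusted p 0.021, MEF2A probe set 1 adjusted p 0.0591), 1 among probe sets above background (NFATC1, which enters this filter by its Sham mean alone, while MEF2A gave an adjusted p of 0.0598), 1 at an adjusted p under 0.01, 0 with a 1.5-fold threshold and 0 in set B. Among the 16000 brightest probe sets it was 0, since NFATC1 ranked 16600 and MEF2A gave an adjusted p of 0.0745. Leaving out each animal gave 1 to 2, with 1 in 12 of 16. With the replicate block RCAN1, of the calcineurin and target lists, passed as higher (adjusted p 0.0158). KLF15, of the muscle and metabolic list, passed there as lower (adjusted p 0.0445). Over all 32 alternatives the member count ran from 0 to 3, and it was 3 in set A. The same settings took the 2527 probe sets passing over the array to 993 (above background), 1123 (adjusted p under 0.01), 207 (1.5-fold), 1 (set B) and 654 (16000 brightest), and the replicate block took the 14 of female minus male to 0. Fewer animals or probe sets enter some of these fits, and otherwise the cause was not tested. No member passed for female minus male or the interaction in 30 alternatives each.

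Directions turned mainly in set B (5 arrays): MEF2A probe set 2 to 0.02, GATA4 to 0.29 and 0.39, GATA6 to 0.20, ACTC1 to 0.10, MYL4 to 0.42, NPPA to 0.42, PPARGC1A to 0.52 and WT1 to -0.25. GATA6 ran from -0.10 to 0.05 as animals were left out. The interaction of GATA4 probe set 1 was -0.18 with the set as a block, -0.24 in set A and -0.22 with the block and MI 7 left out. Without MI 7 and with no block it kept its sign, at 0.30.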

Other observations

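Other genes of the same families, chosen after the values were seen, gave no common direction. GATA2, the GATA factor of blood and endothelial cells, gave -0.01 (SE 0.14, adjusted p 0.971) and -0.15 (SE 0.07, adjusted p 0.214) by 2 probe sets. GATA3, known from T cells, had 4 probe sets that disagreed: 1 fell by 0.47 on the log2 scale (SE 0.14, adjusted p 0.0441), another, under the background ceiling in all 16 animals, was higher by 0.31 (SE 0.09, adjusted p 0.044), and the other two gave 0.00 and -0.16 and did not pass. TBX2, a T-box repressor of the embryonic heart, gave 0.03, 0.16 and -0.14 by 3 probe sets, none of which passed. Those of NKX6-1 gave -0.04 and 0.04, with adjusted p 0.841 and 0.843.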
